A study of Mus musculus with 6 samples.

Results

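The genes described here encode the constitutive proteasome and the factors that assemble it: the 20S core particle, the 19S regulatory particle, the activators that can take its place, an inhibitor, and the assembly chaperones. They are the rows of the deposited count tables whose symbols run from Psma, Psmb, Psmc, Psmd, Psme, Psmf or Psmg to a number, present in all 6 libraries. The interferon-inducible genes Psmb8, Psmb9, Psmb10, Psme1 and Psme2, and all pseudogenes, were left out. The rule found 43 genes of 55377 and used no measured value. Of these, 42 passed the filter on low counts and were tested among 14683 genes. The exception is Psmb11, the beta subunit of the thymus-type proteasome, which had 1, 1 and 0 counts in the siIRF1 libraries and 0 counts in every siNC library. A count of 0 allows for up to 3.

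Each library was made from mouse articular chondrocytes, the cells that lay down cartilage matrix, which had been put into primary culture and transfected with an siRNA. The 3 libraries called siIRF1 had received an siRNA against Irf1, whose product is an interferon-induced transcription factor, and the 3 called siNC a control siRNA. Total RNA was taken 36 h after transfection in both groups, so all 6 libraries share the culture, the transfection and the time. The labels give no strain, age or sex of the animals and do not say whether replicates were separate cultures. The p-values therefore cover only how much these libraries vary, which may be technical variation.

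As background, the proteasome destroys proteins that carry ubiquitin chains. Alpha and beta rings form the barrel of the 20S core, with the proteolytic sites on the inner face of the beta rings, while the 19S particle recognises, unfolds and feeds in the substrate with a ring of ATPases and a lid of non-ATPase subunits. The subunits are made in matched amounts, and when proteasome activity falls the transcription factor encoded by Nfe2l1 is known to raise most of their genes together. Interferons, partly through Irf1, induce alternative catalytic subunits that replace the constitutive ones in the immunoproteasome. In cartilage the proteasome is known for turning over signalling proteins and regulators of matrix gene expression.

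Irf1 itself had 125, 140 and 141 counts in the siIRF1 libraries, against 312, 355 and 362 counts in the siNC libraries. Its groups did not overlap, and it fell by 1.10 on the log2 scale (SE 0.11, edgeR quasi-likelihood adjusted p = 3.0e-06). The siIRF1 libraries held 22349142 to 26752065 counts and the siNC libraries 28565096 to 29282494, so each siIRF1 library was shallower than each siNC library. All 8 chondrocyte markers were present at 1 CPM (counts scaled to a common library total) or more, with summed levels of 83530 to 108700 CPM in siIRF1 and 83910 to 109600 CPM in siNC. Most of that sum was Col2a1, and Hapln1, which encodes a matrix link protein, stood at 878, 983 and 882 CPM in siIRF1, against 1848, 1918 and 1862 CPM in siNC. Of 6 macrophage markers 3 reached 1 CPM, with sums of 18.1 to 18.6 CPM in siIRF1 and 12.8 to 16.5 CPM in siNC, and the defining marker Adgre1 was at 0 in each library. The markers did not move together: Cd68 and Cd14 were higher in each siIRF1 library, while Lyz2 had 0.857 to 1.195 CPM in siIRF1 and 1.28 to 1.75 CPM in siNC, and Csf1r was lower in each siIRF1 library as well. Fibroblast markers summed to 2641 to 3387 CPM in siIRF1 and 3687 to 4620 CPM in siNC, nearly all of it Col1a1, and osteoblast markers to 53.5 to 79.2 CPM in siIRF1 and 82.2 to 107.7 CPM in siNC. Of the osteoblast markers Ibsp was lower in each siIRF1 library, at 30 to 56.4 CPM in siIRF1 and 57.3 to 83.9 CPM in siNC, while Sp7 overlapped and Bglap, under 1 CPM throughout, was higher in each siIRF1 library. Dpt and Pi16, the more specific fibroblast markers, were below 1 CPM throughout, and endothelial and skeletal muscle markers summed to under 10 CPM in each library. The part of these shifts in the values below was not tested.

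Transcripts of the proteasome, summed over all members, differed between the groups by less than the spread between libraries. Summed over the 42 tested genes, they took 4446, 4425 and 4306 CPM in the siIRF1 libraries and 4286, 4379 and 4486 CPM in the siNC libraries, where CPM is scaled with edgeR's TMM factors. The ranges overlapped, and the means differed by 0.196%. In a mixed RNA sample, fewer cells of a type and less RNA per cell cannot be told apart. The 42 log2 fold changes, siIRF1 over siNC, ran from -0.20 to 0.37 with a median of 0.02, beside a median of 0.00 over all genes tested. Of them 25 were above 0 and 17 below, against 7370 above and 7313 below over all genes tested.

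Only 4 of the 42 genes passed edgeR's quasi-likelihood test at an adjusted p below 0.05, against 22.4% of all tested genes. Psma8 and Psmb7 were higher with the Irf1 siRNA, where 10.4% of all genes were, and Psmd7 and Psmd8 were lower, where 12% of all genes were. No proteasome gene differed by 1.5-fold or more, while 8.68% of all tested genes did. For 36 of the 42 genes the 95% interval of the fold change lay within 1.25-fold in either direction, against 39.7% of all tested genes. These are abundant, evenly measured transcripts, with a median level of 109.6 CPM against 18.95 CPM for all genes, and a median SE of 0.06 against 0.09 on the log2 scale. Their folds were also smaller, with a median absolute log2 fold change of 0.08 against 0.16, and the part of each in the narrower intervals was not tested. The groups did not overlap for 16 of the 42 genes (38.1%), the same share as for all genes, 38.1%. At an unadjusted p below 0.05 in the same edgeR test there were 11 of the 42 genes, against 5043 of the 14683 tested genes.

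**Figure D1:**
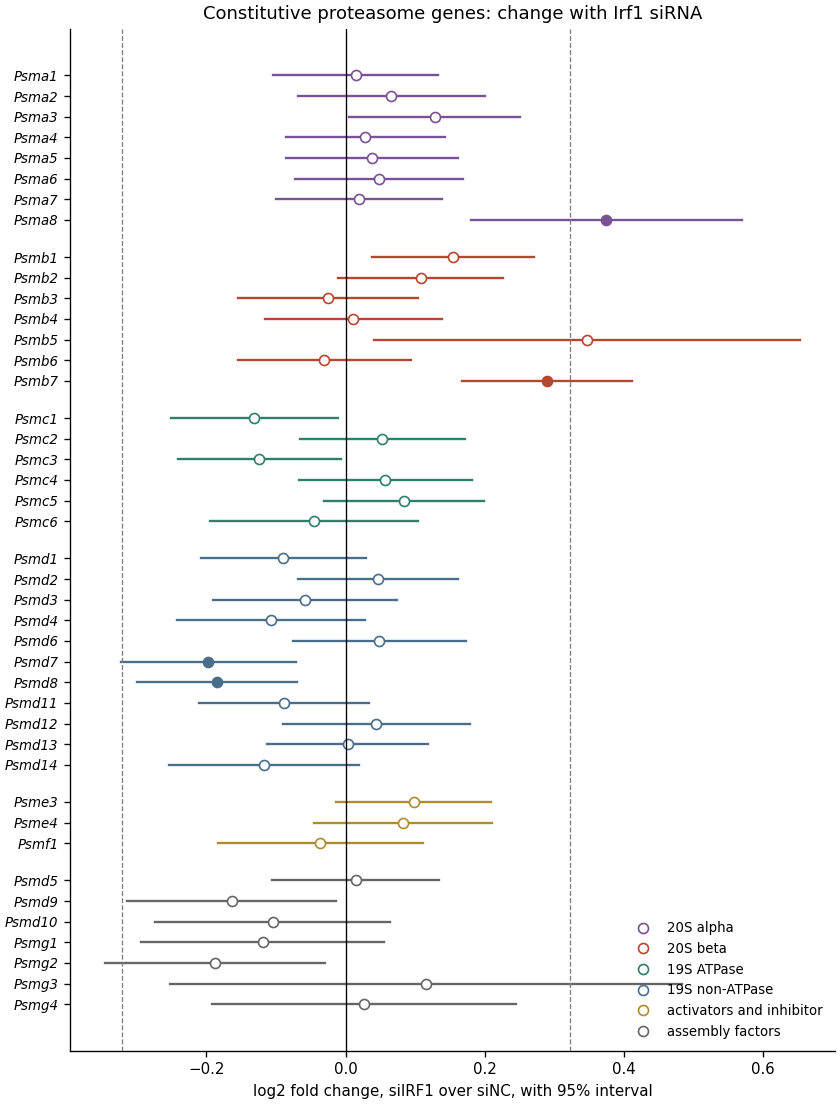
Each row is one of the 42 tested proteasome genes, ordered by role; the point is the log2 fold change of siIRF1 over siNC and the line its 95% interval (3 libraries a group), with filled points for adjusted p below 0.05. Dashed lines mark 1.25-fold in either direction: 36 of the 42 intervals stay between them, Psma8, Psmb7, Psmd7 and Psmd8 are filled, and Psmb5 has the widest interval among the 20S genes.

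Levels can be compared between genes only per length, here as CPM per kilobase of the principal transcript. On that scale the median gene of each role stood at 112 CPM per kb in siIRF1 and 111 in siNC for the 20S beta ring, and at 86.6 in siIRF1 and 89.7 in siNC for the 19S ATPases. The alpha ring stood at 73.0 in siIRF1 and 71.8 in siNC, and the 19S non-ATPase subunits at 68.3 in siIRF1 and 73.8 in siNC. The accessory genes were several-fold lower: activators and inhibitor had 19.9 CPM per kb in siIRF1 and 18.8 in siNC, and assembly factors 16.7 in siIRF1 and 16.6 in siNC. The 6 ATPases lay close together, at 65.3 to 99.4 CPM per kb in siIRF1 and 67.4 to 97.4 in siNC. The 20S genes varied more, and Psma8 and Psmb5 were the lowest of their rings. Psma8 had 7.54 ± 0.46 CPM per kb in siIRF1 and 5.82 ± 0.16 in siNC, and Psmb5 had 31.6 ± 2.4 in siIRF1 and 24.8 ± 5.4 in siNC (SD, n = 3). The level of Psmb5 leaves out reads assigned to its pseudogene copy Gm3375. With them it had 62.8 to 73.3 CPM in siIRF1 and 53.0 to 62.9 CPM in siNC. Without them it had 26.9 to 30.8 CPM in siIRF1 and 16.9 to 26.2 CPM in siNC. The other alpha genes spanned 46.1 CPM per kb for Psma2 to 145.4 for Psma7 in siIRF1 and 44.1 to 143.4 in siNC. When all exons of a gene were counted as its length, the order of the roles changed, with the ATPases at 58.1 CPM per kb in siNC ahead of the beta ring at 38.1. Under both lengths the median gene of each subunit role stood above the medians of both accessory roles in siNC. Single genes did not all follow: Psme3, an activator, had 49.3 CPM per kb of principal transcript in siNC, above Psma2 and Psmb5.

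**Figure D2:**
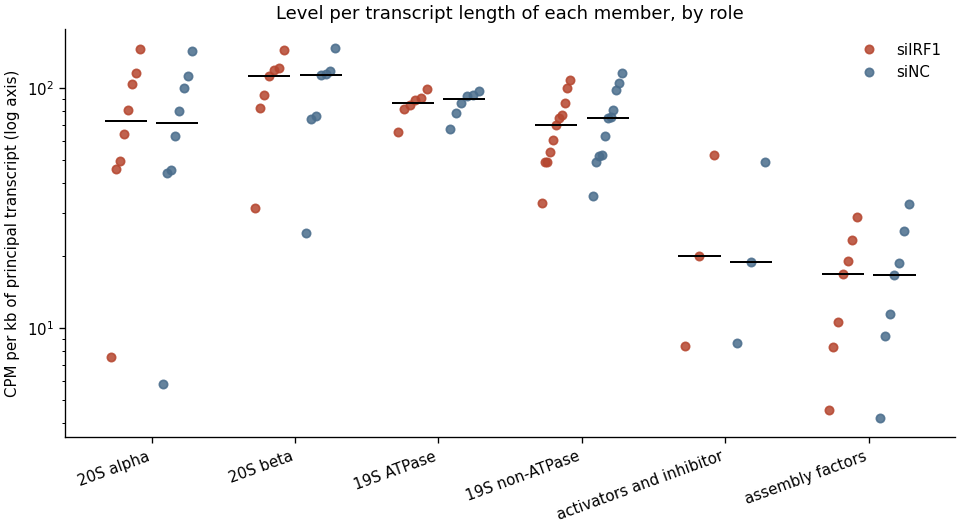
Points are the mean level of each gene in CPM per kb of principal transcript (log axis), by role and with siIRF1 left of siNC; lines are medians over the genes of a role. Psma8 and Psmb5 sit well below the other genes of their rings. Apart from Psme3, the activators, inhibitor and assembly factors sit below the other subunits of both particles.

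The alpha ring closes both ends of the barrel and gates entry to it. All 8 alpha genes had log2 fold changes above 0 in the fit of all 6 libraries, with a median of 0.04, and 1 of them rose. Their signs are not separate observations, since proteasome genes deviated together in some libraries. In siNC library 3, 34 of the tested members lay above the group mean and 8 below. In siIRF1 library 3 it was 10 above and 32 below, and in siNC library 1 it was 11 and 31. The remaining libraries were more even. Over the 14 settings tried, Psma1 changed sign in 4 (-0.0020 to 0.0419) and Psma7 in 2 (-0.0059 to 0.0453). The gene that rose was Psma8, known as the testis form of the alpha subunit that Psma7 encodes in other tissues. Psma8 had 11.9, 13.3 and 13.1 CPM in siIRF1, against 9.84, 9.57 and 10.1 CPM in siNC. Every siIRF1 library was above every siNC library, and the gene rose by 0.37 on the log2 scale (SE 0.09, 1.30-fold, edgeR adjusted p = 0.00811). Psma7, the most abundant alpha gene per principal transcript length though not per length of all exons, had 137.6, 133.4 and 127.7 CPM in siIRF1 and 126.7, 130.9 and 135.7 CPM in siNC. Those groups overlapped, with a log2 fold change of 0.02 (SE 0.06, 95% interval -0.10 to 0.14), so a change of the size seen for Psma8 lay outside its interval. None of the 50-base words of the principal Psma8 transcript occurred in a transcript of another gene, Psma7 included. Psma3 had the next largest value, 0.13 (SE 0.06, adjusted p = 0.128), and Psma1, Psma2, Psma4, Psma5 and Psma6 lay between 0.01 and 0.07.

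The beta ring holds the catalytic sites. Psmb6, Psmb5 and Psmb7 encode the subunits with caspase-like, chymotrypsin-like and trypsin-like activity, and Psmb1 to Psmb4 encode subunits without a site. Psmb7 had 113.4, 107.4 and 103.5 CPM in siIRF1, against 87.5, 86.1 and 91.6 CPM in siNC. The groups stood well apart, and Psmb7 rose by 0.29 on the log2 scale (SE 0.06, 1.22-fold, edgeR adjusted p = 0.00196). Psmb7 lies on the minus strand at chr2:38588036-38644087 (GRCm38), and 405 of its exon bases, 11.8%, overlap exons of Nek6 on the opposite strand. Nek6 had 4230 counts over the siIRF1 libraries and 6192 over the siNC libraries. These sums are not scaled for depth, and each siIRF1 library was shallower than each siNC library. The labels do not say whether the counting used strand.

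Psmb6, the most abundant beta gene per principal transcript length though not per length of all exons, had 122.8, 109.1 and 114.4 CPM in siIRF1 and 115.4, 118.9 and 119.3 CPM in siNC. The groups overlapped, and the log2 fold change was -0.03 (SE 0.06, edgeR adjusted p = 0.753). Psmb5 had 30.8, 27.3 and 26.9 CPM in siIRF1 and 26.2, 16.9 and 23.7 CPM in siNC. The groups did not overlap, but the second siNC library lay far below the other siNC libraries, and the log2 fold change of 0.35 (SE 0.14, adjusted p = 0.101) did not pass the test. Without that library the log2 fold change of Psmb5 was 0.18 (adjusted p = 0.198), and without the first siNC library it was 0.48 and passed (adjusted p = 0.0138). It passed also by DESeq2 (adjusted p = 0.032), with no filter on low counts (adjusted p = 7.7e-04) and with the replicate number as a block (adjusted p = 0.00193). Of the subunits without a site, Psmb1 came closest to the threshold, with 149.7, 146.0 and 139.1 CPM in siIRF1 and 128.5, 130.0 and 132.1 CPM in siNC. Its groups did not overlap, at a log2 fold change of 0.15 (SE 0.05, adjusted p = 0.0533, and 0.0493, 0.026 and 0.0453 under the other scalings of the libraries). Psmb1 passed in those 3 of the 14 settings only. It did not pass by DESeq2 (adjusted p = 0.0507) or by edgeR with 1 library left out (adjusted p = 0.0757 to 0.151). Psmb2, Psmb3 and Psmb4 had log2 fold changes of 0.11, -0.03 and 0.01, and none passed.

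**Figure D3:**
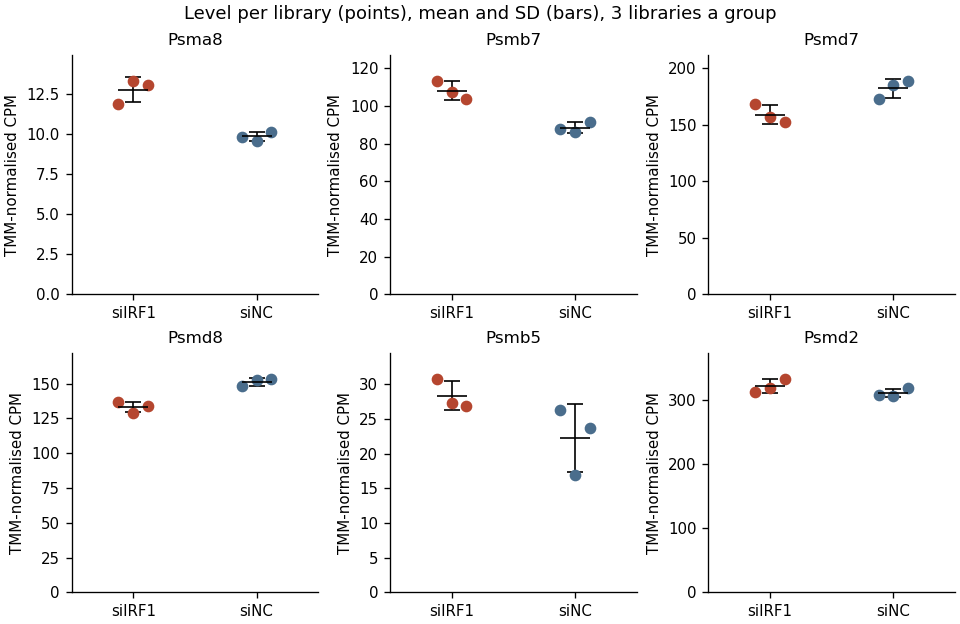
TMM-normalised CPM of 6 proteasome genes in each library (points), with mean and SD (bars) for siIRF1 on the left and siNC on the right; axes start at 0. Psma8 and Psmb7 are higher in each siIRF1 library, Psmd7 and Psmd8 lower, Psmb5 has 1 low siNC library at 16.9 CPM, and Psmd2, the most abundant gene by CPM, overlaps.

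Psmb5 also shares its sequence. Of the 50-base words in its exons, 57.1% occur in other genes, 49.4% in the processed pseudogene Gm3375, which lies elsewhere in the genome and lacks introns. On the same strand Mir686 overlaps 109 of the Psmb5 exon bases, so words shared with it lie at the same place. A stretch of Psmb5 coding sequence that is identical in Gm3375 is shown because a read within it cannot be assigned to either gene. It is the part within 1 exon, 154 bases at chr14:54614328-54614481 on the minus strand (GRCm38), of an identical run of 194 bases in a coding sequence of 795.
Psmb5: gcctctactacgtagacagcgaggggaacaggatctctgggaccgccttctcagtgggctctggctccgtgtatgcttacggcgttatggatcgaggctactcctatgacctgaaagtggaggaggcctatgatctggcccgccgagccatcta
The deposited tables gave Gm3375 958, 974 and 913 counts in siIRF1 and 1018, 1009 and 1104 counts in siNC, and gave Psmb5 itself 683, 753 and 631 counts in siIRF1 and 736, 476 and 702 counts in siNC. More counts were thus recorded for the copy than for the gene in each library, and the low siNC library was low for Psmb5 but not for Gm3375. With the counts of Gm3375 added, Psmb5 had 73.3, 62.8 and 65.3 CPM in siIRF1 and 62.9, 53.0 and 61.0 CPM in siNC, and the groups overlapped. The log2 fold change was then 0.20 (SE 0.08, edgeR adjusted p = 0.0705). Psma3, Psma4, Psma5, Psmb3, Psmd2 and Psmd11 also have processed copies that share 14% to 39.9% of their words with 1 copy, but these copies held far fewer counts than the gene, at most 700 over the siNC libraries for the copy of Psma3 against 11103 for Psma3. None of these genes was called with or without the copies. No 50-base word of the principal transcripts of Psma8, Psmb7, Psmd7 and Psmd8 occurred in a transcript of another gene. The opposite strand, where Nek6 overlaps Psmb7, was not searched.

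**Figure D4:**
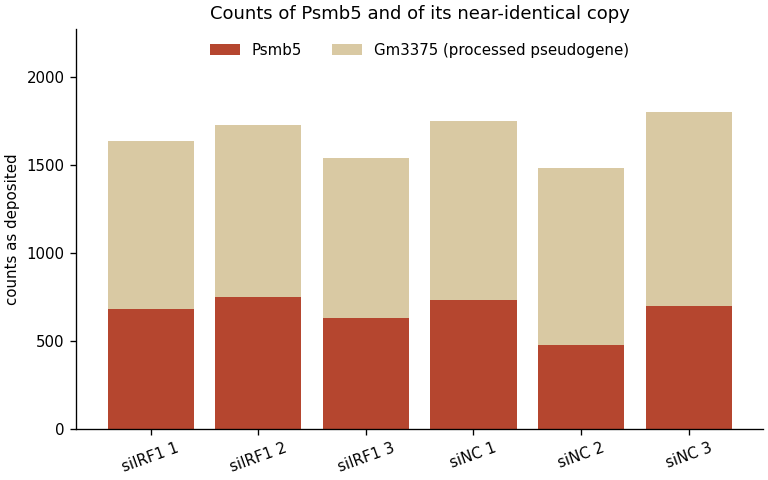
Stacked bars give the deposited counts of Psmb5 (lower part) and of its processed pseudogene Gm3375 (upper part) in each library, siIRF1 left of siNC. Gm3375 holds 913 to 974 counts in siIRF1 and 1009 to 1104 in siNC, more than Psmb5 in each library, and only the Psmb5 part is small in the second siNC library, at 476 counts.

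The 19S ATPases form the ring that unfolds substrates. None of the 6 was called, 3 had log2 fold changes above 0 and 3 below, and the median was 0.00. Psmc1, the most abundant per principal transcript length in siNC, where Psmc5 led in siIRF1, had 144.4, 143.0 and 137.2 CPM in siIRF1 and 146.9, 157.2 and 160.8 CPM in siNC. The groups did not overlap, and the log2 fold change of -0.13 (SE 0.06, edgeR adjusted p = 0.113) did not pass. Psmc3 had a similar value of -0.12 (SE 0.06, adjusted p = 0.121), and Psmc5 had the highest, 0.08 (SE 0.05, adjusted p = 0.295). For all 6 the 95% interval lay within 1.25-fold either way.

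The non-ATPase subunits build the lid and the scaffold of the 19S particle, and they held both genes that fell. Psmd7 encodes the partner of the deubiquitinase subunit that Psmd14 encodes. Psmd7 had 168.0, 156.8 and 152.2 CPM in siIRF1, against 172.9, 185.0 and 189.0 CPM in siNC. Psmd8, which encodes a lid subunit that joins last in yeast, had 136.7, 129.0 and 133.9 CPM in siIRF1, against 148.2, 152.3 and 153.6 CPM in siNC. Every siIRF1 library was below every siNC library for both genes, though for Psmd7 the nearest libraries of the groups were close. Psmd7 fell by 0.20 on the log2 scale (SE 0.06, 1.15-fold, edgeR adjusted p = 0.0255), and Psmd8 fell by 0.18 (SE 0.05, 1.14-fold, edgeR adjusted p = 0.0219). Both calls were lost when libraries were scaled by their totals alone (adjusted p = 0.0635 for Psmd7 and 0.0558 for Psmd8) and when library 2 or 3 of either group was left out (adjusted p = 0.0528 to 0.121 for Psmd7 and 0.0589 to 0.0717 for Psmd8). Psmd7 lies at chr8:107580381-107588464 and Psmd8 at chr7:29174188-29180701, both on the minus strand (GRCm38).

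Psmd14, the deubiquitinase, had a log2 fold change of -0.12 (SE 0.06, adjusted p = 0.214), and Psmd4, a ubiquitin receptor, of -0.11 (SE 0.06, adjusted p = 0.251). Psmd2, the docking scaffold for ubiquitin-binding factors, had 311.9, 318.5 and 333.3 CPM in siIRF1 and 307.6, 307.0 and 318.3 CPM in siNC. These groups overlapped at a log2 fold change of 0.05 (SE 0.05, edgeR adjusted p = 0.585). The scaffold gene Psmd1 and the lid genes Psmd3, Psmd6, Psmd11, Psmd12 and Psmd13 lay between -0.09 and 0.05, and none passed. Of the 11 genes 7 had values below 0, with a median of -0.09.

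Activators other than the 19S particle open the barrel without ubiquitin. Psme3, whose product acts in the nucleus, had 138.2, 143.0 and 140.3 CPM in siIRF1 and 129.7, 132.0 and 132.3 CPM in siNC. The groups did not overlap, and the log2 fold change of 0.10 (SE 0.05, edgeR adjusted p = 0.205) did not pass. Psme4, the large activator known from chromatin, stood at 0.08 (SE 0.06, adjusted p = 0.357), and Psmf1, which encodes a protein that inhibits the 20S core in vitro, at -0.04 (SE 0.07, adjusted p = 0.752).

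The assembly factors are chaperones that leave the finished particle. Psmg1 to Psmg4 build the alpha ring in pairs, and Psmd5, Psmd9 and Psmd10 hold parts of the ATPase ring. None of the 7 passed the test, 4 had values below 0 and the median was -0.10. Psmg2, the most abundant per length, had 32.0, 32.6 and 27.4 CPM in siIRF1 and 35.1, 35.7 and 34.0 CPM in siNC. The groups did not overlap, at a log2 fold change of -0.19 (SE 0.07, edgeR adjusted p = 0.0847). Its partner Psmg1 stood at -0.12 (SE 0.08, adjusted p = 0.33) and Psmd9 at -0.16 (SE 0.07, adjusted p = 0.113), while Psmd10, Psmd5, Psmg4 and Psmg3 had -0.10, 0.01, 0.03 and 0.12. Psmg3 was the least abundant member tested, at 2.84 to 4.46 CPM over all libraries, and its interval was the widest, -0.25 to 0.48.

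Summed by role, small shifts ran in different directions. The 20S beta genes summed to 762.8, 717.3 and 704.9 CPM in siIRF1 and 676.9, 684.7 and 687.8 CPM in siNC, without overlap and 6.62% higher. The 19S non-ATPase genes summed to 1515, 1512 and 1493 CPM in siIRF1 and 1533, 1578 and 1596 CPM in siNC, without overlap and with a difference of -3.97%. The activators with the inhibitor differed by 5.44% and the assembly factors by -4.67%, both without overlap, while the alpha genes (3.94%) and the ATPases (-1.52%) overlapped between the groups. These sums were given no test and include the called genes. In the beta sum, Psmb7 had mean levels of 108.1 CPM in siIRF1 and 88.4 CPM in siNC. In the non-ATPase sum, Psmd7 had 159.0 CPM in siIRF1 and 182.3 CPM in siNC, and Psmd8 133.2 and 151.4 CPM. Genes outside the Psm series, such as the lid gene Sem1, are not in the sums.

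Set against each other within a library, where the scaling cancels, the summed 20S genes over the summed 19S genes gave 0.681, 0.671 and 0.660 in siIRF1 and 0.624, 0.610 and 0.620 in siNC. Every siIRF1 library was above every siNC library, with means of 0.671 ± 0.011 in siIRF1 and 0.618 ± 0.007 in siNC (SD, n = 3), a difference of 8.52%. Without the 4 called genes the ratio was 0.721, 0.705 and 0.696 in siIRF1 and 0.674, 0.662 and 0.672 in siNC, 5.61% higher and still without overlap. Without Psmb5 the difference was 8.18%, and without Psma8 it was 8.36%. The roles were merged into the 2 particles after their values had been seen, so the ratio is a description. Transcript length moves with it: the median principal transcript had 1165 bases for the 20S genes and 1636 for the 19S genes. Within the 20S genes it was 1220 bases for the alpha and 899 for the beta genes. Over all tested genes the median log2 fold change was 0.09 for transcripts under 1000 bases (1438 genes), 0.01 from 1000 to 1500 bases and 0.00 from 1500 to 2000 bases, and the part of length in the ratio was not tested.

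**Figure D5:**
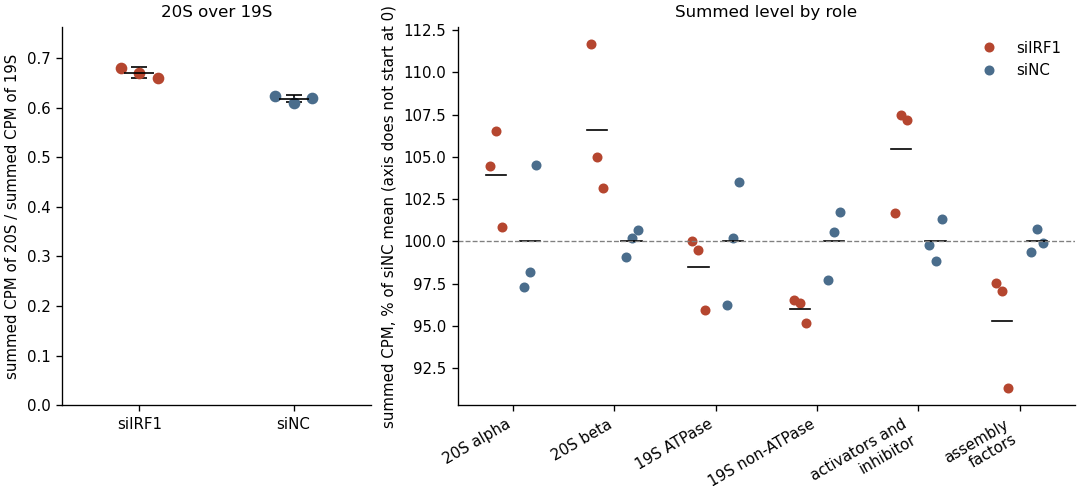
Left, summed CPM of the 15 tested 20S genes over that of the 17 tested 19S genes in each library (points) with mean and SD (bars); the siIRF1 libraries lie at 0.660 to 0.681 and the siNC libraries at 0.610 to 0.624. Right, summed CPM by role as a percentage of the siNC mean (the axis does not start at 0), siIRF1 left of siNC, with lines at the means; 20S beta is 6.62% higher in siIRF1 and 19S non-ATPase lower.

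Of the interferon-inducible subunits, which replace the constitutive catalytic ones, Psmb8 and Psmb9 were scarce in these cells. Psmb10 was not, at 7.01 to 9.07 CPM in siIRF1 and 8.17 to 9.57 CPM in siNC, and it was tested. Psmb8, which takes the place of Psmb5, had 1, 5 and 2 counts in siIRF1 and 10, 14 and 14 counts in siNC. Psmb9, which takes the place of Psmb6, had 0, 1 and 1 counts in siIRF1 and 9, 5 and 6 counts in siNC. Both groups of libraries stood apart, but these counts were too low to pass the filter and were not tested across genes. Relative to Psmb5, Psmb8 stood at 0.146%, 0.664% and 0.317% in siIRF1 and 1.36%, 2.94% and 1.99% in siNC, a log2 difference of -2.67. The base is Psmb5 without its copy Gm3375, whose larger counts would lower each percentage by more than 2 times, and the highest value comes from the siNC library with 476 counts of Psmb5. Psmb10, which takes the place of Psmb7, stood at 8.01%, 6.53% and 8.42% of Psmb7 in siIRF1 and 10.2%, 11.1% and 8.92% in siNC, a log2 difference of -0.40. Psmb10 itself had a log2 fold change of -0.11 (SE 0.12, edgeR adjusted p = 0.544). Psmb9 over Psmb6, with 1 count added to both, gave a log2 difference of -1.97. Each of the 3 ratios gave p = 0.1 in a two-sided exact permutation test, also after Benjamini-Hochberg adjustment over the 3, and 0.1 is the smallest p that 3 against 3 libraries allow. The activator genes Psme1 and Psme2, which encode the subunits of the interferon-inducible cap, fell by 0.39 and 0.47 (edgeR adjusted p = 0.00169 and 7.4e-05), while the 95% intervals of Psme3 and Psme4 were -0.01 to 0.21 and -0.05 to 0.21. Both intervals lie above the values of Psme1 and Psme2, and the difference between these genes was not tested.

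Beyond the subunits, 38 genes that act with the proteasome were listed by function, and 37 were tested. Of these 3 rose and 4 fell, with a median log2 fold change of 0.07, beside 10.4% higher and 12% lower among all genes. Tpp2, a giant peptidase that trims what the proteasome releases, had 64.2, 78.9 and 73.7 CPM in siIRF1, against 117.4, 125.5 and 129.2 CPM in siNC. The groups stood far apart, and Tpp2 fell by 0.78 on the log2 scale (SE 0.07, edgeR adjusted p = 1.6e-06), more than any proteasome gene. Nub1, an adaptor that brings ubiquitin-like modified proteins to the proteasome, fell by 0.31 (SE 0.06, adjusted p = 0.00152). Ddi2, the protease that activates the Nfe2l1 product, fell by 0.23 (SE 0.06, adjusted p = 0.0131), and Uba6, a ubiquitin-activating enzyme, fell by 0.32 (SE 0.10, adjusted p = 0.0407). The call of Ddi2 was lost without siIRF1 library 1 (adjusted p = 0.0524) or siNC library 1 (0.0626), and that of Uba6 with upper-quartile scaling, with library totals only, and without siIRF1 library 1 or 3 or siNC library 2 or 3 (adjusted p = 0.0523 to 0.121). Without siIRF1 library 1 the log2 fold change of Uba6 was -0.21. Rps27a, a ribosomal protein gene that also encodes ubiquitin, rose by 0.25 (SE 0.06, adjusted p = 0.00434). Zfand5, an activator of the proteasome, rose by 0.24 (SE 0.06, adjusted p = 0.011), and Zfand2a, whose product is induced by arsenite and binds the proteasome, rose by 0.18 (SE 0.06, adjusted p = 0.0407). That call was lost by DESeq2, with no filter on low counts, and without siIRF1 library 3 or any 1 siNC library (adjusted p = 0.0577 to 0.211).

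The regulator Nfe2l1 had 545.4, 480.2 and 532.8 CPM in siIRF1 and 550.7, 521.8 and 498.2 CPM in siNC. The groups overlapped, with a log2 fold change of -0.01 (edgeR adjusted p = 0.92). The sign of that value turned with upper-quartile scaling and with library totals only, but not with RLE, another scaling of the libraries (-0.0092). Pomp, the maturation factor of the 20S core, had 79.3, 78.6 and 76.8 CPM in siIRF1 and 77.4, 75.6 and 75.7 CPM in siNC. Those groups overlapped too, at 0.04 (adjusted p = 0.67). Sem1, a small lid subunit whose symbol falls outside the Psm series, stood at 0.22 (SE 0.08, adjusted p = 0.0501).

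Promoter windows, 250 bases before to 50 after the start of a gene, were in the RefSeq table (GRCm38.p6) for 35 of the 43 genes. Psma8, Psmb1, Psmb2, Psmb7, Psmc3, Psmd3, Psmd7 and Psmg2 are the others. Interferon regulatory factors bind repeats of GAAA, so the letters GAAANNGAAA were searched on both strands. They were found for 4 of the 35 genes (11.4%), against 3.43% of 10705 tested genes in the table. Some genes have more than 1 start and window, and a gene counts once. The 4 windows are shown with that of Psme1, the single match among the 5 interferon-inducible genes, so that the constitutive matches can be compared with a gene that fell. Capitals mark the match, and each line gives 20 bases on either side.
Psmb3: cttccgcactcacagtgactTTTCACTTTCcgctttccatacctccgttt
Psmd4: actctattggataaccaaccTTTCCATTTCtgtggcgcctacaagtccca
Psmd9: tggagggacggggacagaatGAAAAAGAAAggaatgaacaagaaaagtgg
Psmg4: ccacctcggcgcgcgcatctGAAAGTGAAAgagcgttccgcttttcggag
Psme1: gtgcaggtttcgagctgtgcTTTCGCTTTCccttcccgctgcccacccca
These lie at chr11:97703251-97703300 (plus strand) for Psmb3, chr3:95042665-95042714 (minus) for Psmd4, chr5:123228011-123228060 (plus) for Psmd9, chr13:34162959-34163008 (plus) for Psmg4 and chr14:55578483-55578532 (plus) for Psme1. The matches begin 163, 80 and 159 bases before the start in Psmb3, Psmd4 and Psmd9, and 15 and 9 bases after it in Psmg4 and Psme1. None of the 4 constitutive genes was called: their log2 fold changes were -0.03 for Psmb3, -0.11 for Psmd4, -0.16 for Psmd9 and 0.03 for Psmg4, against -0.39 for Psme1. Psme2 had no match and a log2 fold change of -0.47. The part of the motif in any of these values was not tested.

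Other motifs were searched in the same windows on both strands. The antioxidant response element, to which the Nfe2l1 product binds, was searched as TGACNNNGC or TGAGNNNGC and found for 16 of 35 genes (45.7%), against 35.4% of tested genes. The ETS motif CCGGAAG was found for 14 (40%), against 19.4%, and CCAAT for 13 (37.1%), against 42.8%. No motif contains the letters of another. A match is a description of these letters and does not show binding.

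From these same libraries, 4 words of 7 bases in 3′ untranslated regions (UTRs) had been picked earlier for going with falls, so their share is a description here. One pair is ACTGATC together with CTGATCA, the other is GCTATCT together with CTATCTA, and the words of a pair overlap by 6 bases. Of 42 proteasome genes with an annotated 3′ UTR, 3 held a word (7.14%), against 2870 of 12820 tested genes (22.4%). Their UTRs were short, with a median of 312.5 bases against 1210. Over all tested genes with an annotated 3′ UTR, 745 of the 2870 that held a word were lower and 204 higher, against 958 lower and 1211 higher among those without. For each of the 3 proteasome genes, none of which was called, 1 site is shown. Beside them is that of Tpp2, which holds the same word as Psme4 and Psmd5 and fell by 0.78. Psmd5 has a further CTGATCA at chr2:34850446-34850452, not shown. Capitals mark 1 word, and in Psme4, Psmd5 and Tpp2 the next base completes CTGATCA as well.
Psma3: gggtaattgaaGCTATCTgtgtaatatta
Psme4: gttccctgagtACTGATCactttttcttt
Psmd5: tccttttccacACTGATCatttctatatg
Tpp2: taccattcaatACTGATCattaaaactat
The words lie at chr12:70994523-70994529 (plus strand) in Psma3, chr11:30879868-30879874 (plus) in Psme4, chr2:34851641-34851647 (minus) in Psmd5 and chr1:44002308-44002314 (plus) in Tpp2 (GRCm38). The log2 fold changes were 0.13 for Psma3, 0.08 for Psme4 and 0.01 for Psmd5. Of the 37 related genes 11 held a word, among them Tpp2, Ddi2 and Uba6, which fell, and Zfand5, which rose. Among the related genes without one, 1 fell and 2 rose. Neither Psmd7 nor Psmd8 held one.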

How the data were processed

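The data are RNA-seq of 3 siIRF1 and 3 siNC libraries of mouse articular chondrocytes, made with the TruSeq Stranded mRNA kit, per the labels' protocols. The authors deposited 1 table per library of raw read counts per gene, as whole numbers without normalisation. Per the submitters' processing notes, STAR, FastQC and Trimmomatic 0.39 were used, and the build was GRCm39 (mm39). The sources used here do not name the counting tool, its strand setting or the annotation release. Members and gene lists were chosen with earlier results of these data known.

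The quasi-likelihood test of edgeR 4.0.16 (R 4.3.3; filterByExpr, TMM, robust glmQLFit, two-sided glmQLFTest) compared siIRF1 with siNC, with Benjamini-Hochberg adjustment over all 14683 tested genes and a threshold of 0.05. SEs are the absolute log2 fold change over the square root of F, and 95% intervals use the same fit. The pipeline was tested on simulated data. Alternatives were other scalings, no filter, DESeq2 1.42.0, the replicate number as a block and leaving out each library. Adding near-identical copies to a member and the 20S over 19S ratio were chosen after seeing the data.

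Named with full statistics, by rule, were called members, the most abundant member of each role per principal transcript length in siNC, Psmb5, Psmb6 and Psmb7, called related genes, Nfe2l1, Pomp, Irf1 and the 5 interferon-inducible genes. Other members are named to account for the list; those singled out by size, and Sem1, were chosen after their values were seen. Lengths, 50-base words, 3′ UTRs and coordinates came from GENCODE M21 (GRCm38, not the authors' build), matched by identifier for 99.8% of tested genes and all 43 members. Promoter sequences are from RefSeq (GRCm38.p6). No read was realigned, and counting error sets the precision of scarce genes such as Psmb8 and Psmb9.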

Additional observations from a re-analysis of the deposited data

How the results depend on the processing

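All 14 settings kept Psma8 and Psmb7 called higher and none took a member past 1.5-fold; the number of members called ran from 2 to 5. Members called lower numbered 2, but 0 with library totals only, and 0 to 2 with 1 library left out; members called higher then numbered 2 to 3. Related genes called higher numbered 3, but 5 with upper-quartile scaling and 5 with the replicate number as a block, and 2 to 4 with 1 library left out; those called lower then numbered 2 to 4. Among related genes, calls were lost for Ddi2 in 2 settings and for Uba6 and Zfand2a in 6 each. With 1 library left out, 959 to 1398 genes were higher and 1276 to 1716 lower among all genes, against 1522 and 1767 with all libraries. The cause of these moves was not tested, apart from the loss of a library.

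The log2 fold change of Nfe2l1 turned to 0.0139 with upper-quartile scaling and 0.0109 with library totals only, and ranged from -0.0482 to 0.0419 with 1 library left out; Psmb6 then ranged from -0.0775 to 0.0084 and Psma7 from -0.0059 to 0.0443. The 20S over 19S difference, siIRF1 minus siNC, was 0.0527 from sums, 0.0696 from geometric means and 0.0376 without the 4 called genes, and 0.0474 to 0.0580 with 1 library left out. The log2 difference of Psmb8 over Psmb5 ranged from -3.21 to -2.12, of Psmb9 over Psmb6 from -2.17 to -1.66 and of Psmb10 over Psmb7 from -0.49 to -0.29.

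The labels do not say that equal replicate numbers mark paired samples. Deviations of same-numbered libraries correlated at 0.413, -0.156 and 0.0783, and those of unlike-numbered libraries at -0.5177 to 0.4945. The numbers were therefore not taken as pairs. With the replicate block 5 members were called, Psmb5 added. Depth limits Psmb8, Psmb9 and Psmb11, whose counts were too low to test. Upper-quartile scaling moved the median of all genes to 0.03 on the log2 scale.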
